A study of Caenorhabditis elegans with 4 samples.

Results

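Binding of UNC-62 around 7 regulator genes of the endoderm and intestine, end-1, end-3, med-1, med-2, elt-2, elt-4 and elt-7, was read from lists of ChIP-seq regions of Caenorhabditis elegans embryos. The genes were chosen by symbol, and all 7 were found among the 19971 protein-coding genes of the 6 nuclear chromosomes. None of these genes, with 1 kb on either side, held the midpoint of a region in any of the 3 lists. In the series list 28.1% of all protein-coding genes did, and 20.4% of those no longer than the longest member. Farther out, within 5 kb, that list had a region at 3 of the 7 genes (52.2% of all genes), and elt-7 was the only member with such a region in both replicates (26.9% of all genes). No region lay within 10 kb of end-1, elt-2 or elt-4 in any list.

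UNC-62 is the worm's homeodomain protein of the MEIS class, which binds DNA together with PBC proteins and is known in the adult intestine as a regulator of vitellogenin genes. All 7 genes encode GATA-type zinc finger factors. In the early embryo the maternal factor SKN-1 turns on med-1 and med-2 in the blastomere EMS. The MED proteins, together with the Wnt effectors POP-1 and SYS-1, turn on end-1 and end-3 in its daughter E, the founder of the whole intestine. The END proteins then start elt-7 and elt-2, and ELT-2 keeps the intestinal programme on for life.

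The chromatin came from hermaphrodite embryos of strain OP600, raised at 20 °C and fixed with 2% formaldehyde. All animals carry the mutant allele unc119(ed3) and the transgene wgIs600, which holds a copy of unc119 and unc-62 fused to TY1, EGFP and FLAG tags. The transgene was introduced by bombardment, and the tagged protein was pulled down with anti-GFP antibodies. The UNC-62 ChIP group and the Input group each had 2 replicates of this 1 strain. No list of the Input samples was analysed here, so no comparison between groups was possible, and no statement below carries a test. Whole embryos were used, so binding confined to the few E descendants and binding in all cells cannot be told apart. The sources used here do not say whether the replicate samples were separate cultures.

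The series list held 7964 regions, the replicate 1 list 7782 and the replicate 2 list 3138. Region positions are those of the deposited lists, on WS220. Gene positions came from a table on the later build WBcel235, taken to differ by about 100 bp at most, and distances run from the nearer end of a gene to the midpoint of a region. The table gives no strand. The planned window, from 5 kb upstream of the 5′ end to 1 kb past the 3′ end, was therefore read both ways, as if the 5′ end lay at the lower or at the higher coordinate, and 5 kb on either side covers both readings. Each region carries 1 unnamed value, read as a q-value (a p-value corrected for the number of regions), where a smaller value marks a stronger region. The largest value listed was 0.000997 in the series list, 0.00999 in replicate 1 and 0.000998 in replicate 2. The replicate 1 list thus had a looser limit, and a region missing from another list can reflect the limits. q-values depend on depth, which is unknown, and regions are ranked only within a list. A gene with no region is one where none was listed at these limits, which does not show that UNC-62 was absent.

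Within 5 kb on either side, end-3, med-2 and elt-7 had a region in the series list, 3 of 7 members, where 52.2% of all protein-coding genes did. The same 3 of 7 had one in replicate 1 (51.5% of all genes), but only elt-7 in replicate 2 (27.5% of all genes). The looser limit of the replicate 1 list can add to its share of all genes. Its regions at these 3 members had q-values of 3.46e-06 or smaller. In both replicates there was again only elt-7, 1 of 7 members, where 26.9% of all genes had a region in both. With the 5′ end at the lower coordinate the series list gave 1 member, end-3 (41.9% of all genes), and with the 5′ end at the higher coordinate 2 members, med-2 and elt-7 (41.7% of all genes). For the gene and 1 kb on either side, which does not depend on strand, the count was 0 of 7 members, where 28.1% of all genes had a region. In each of these readings the members' count lay below what the share over all genes would give. The windows overlap and rest on the same few regions, so the readings are not separate results. Shares of the series list were lower among genes no longer than the longest member, at 44.7% within 5 kb and 20.4% within 1 kb. With 7 genes the members' count is a description, and its difference from these shares was not tested.

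**Figure D1:**
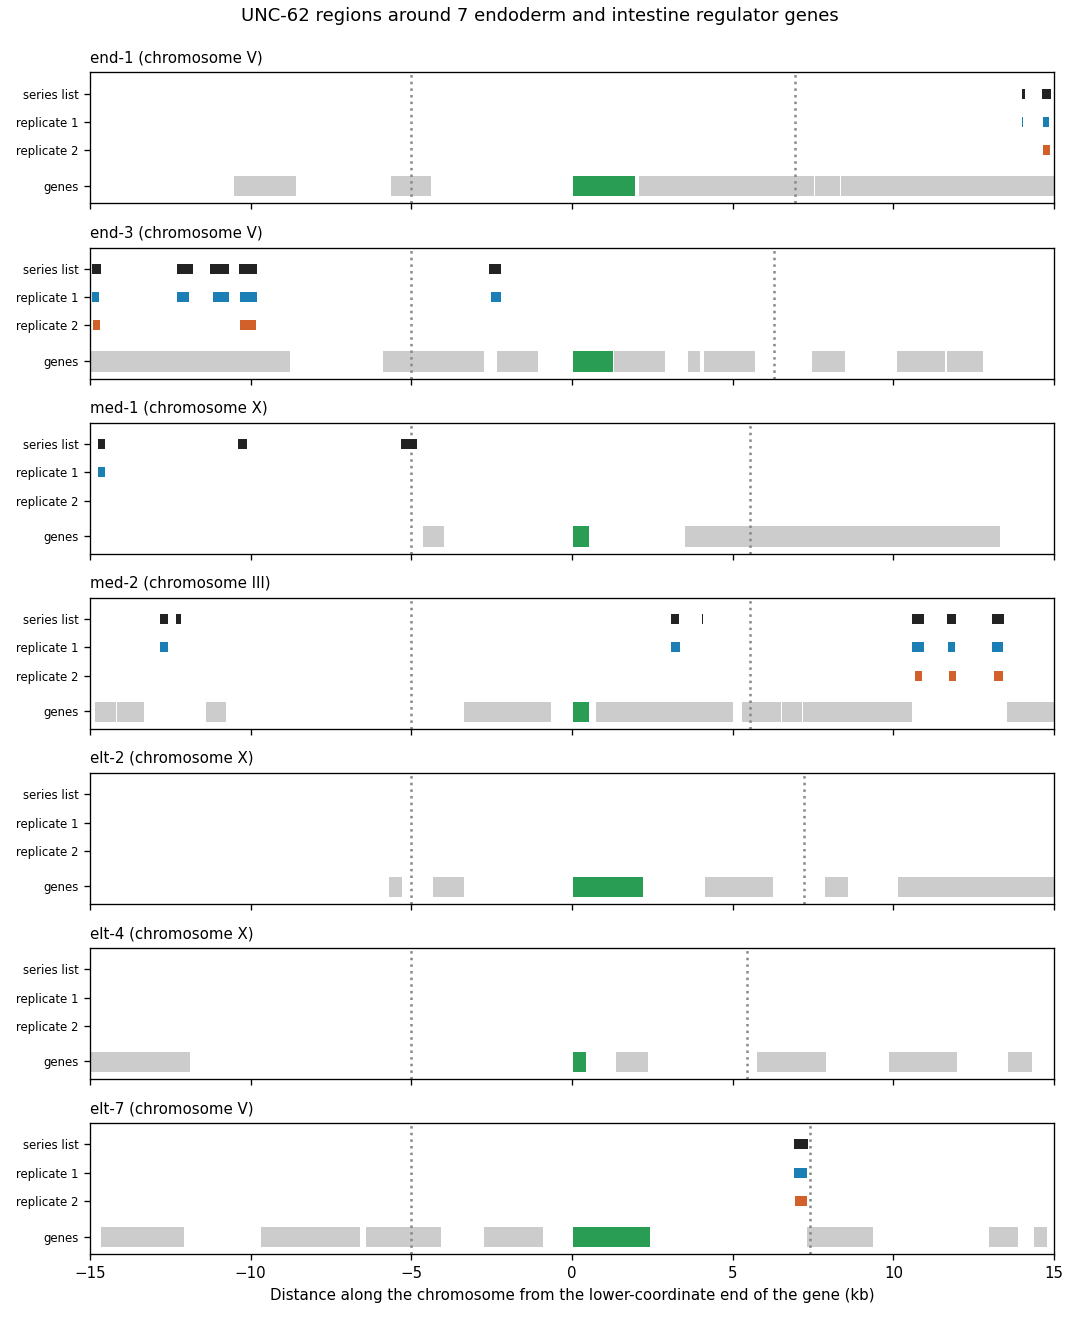
Map of each member (green) and its neighbouring protein-coding genes (grey), with the regions of the series list (black), replicate 1 (blue) and replicate 2 (orange). The x axis is the distance in kb from the lower-coordinate end of the gene, and dotted lines mark 5 kb on either side of it. No bar has its midpoint inside a member, the bars nearest to end-3, med-2 and elt-7 lie 2.40, 2.69 and 4.70 kb away in the series list, and none is drawn around elt-2 or elt-4.

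The earliest members of the cascade, med-1 and med-2, are short near-identical genes of 0.525 kb each on chromosomes X and III. At med-2 the series list had a pair of regions on the higher-coordinate side. The first, III:6887587-6887845 (259 bp), lay 2.69 kb from med-2 with a q-value of 3.61e-07, rank 4239 of 7964. It was present in replicate 1 with a q-value of 3.46e-06 and was not listed in replicate 2. The other, III:6888538-6888568, was 31 bp wide, lay 3.53 kb from med-2 with a q-value of 3.36e-05 and was listed in neither replicate. Both lay inside the neighbouring gene brd-1, the worm BARD1 homologue. The first also overlapped a tRNA gene, K04C2.t3. A region of the series list lay within 100 bp of another tRNA gene, K04C2.t2, without overlapping it. Of the 612 tRNA genes in the table, 38.4% had a region of the series list within 100 bp, and 2.69% of all series regions were that close to a tRNA gene. Whether the reads at med-2 relate to the tRNA genes, to brd-1 or to med-2 was not tested.

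At med-1 no region fell inside the limit of 5 kb. The closest, X:12425276-12425782 (507 bp), had its midpoint 5.08 kb from med-1 on the lower-coordinate side, just outside, whereas that of elt-7, at 4.70 kb, was the member just inside. The med-1 region had a q-value of 0.000461, rank 7330 of 7964, and neither replicate listed it. Its nearest gene was T24D3.2, 0.414 kb away. In the replicate lists the closest regions to med-1 were 14.6 kb away in replicate 1 and 17.6 kb away in replicate 2. The authors' treatment of reads that match both copies is not given in the sources used here, so values at the med genes themselves are uncertain.

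The genes that specify E, end-1 and end-3, lie near each other on chromosome V. At end-3 the series list had 1 region, V:14012112-14012480 (369 bp), 2.40 kb away on the lower-coordinate side. Its q-value was 2.42e-11, rank 2582 of 7964, which is at 32.4% of the list. It was listed in replicate 1 with a q-value of 1.58e-08, at 28.6% of that list, and was not listed in replicate 2. The region overlapped the end of aip-1, an arsenite-inducible gene, and its midpoint fell in the gap between ddx-17 and aip-1, 0.037 kb from aip-1, which is less than the offset taken for the builds. In replicate 2 the region closest to end-3 was 10.1 kb away, in the neuronal gene ric-7.

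No region was listed within 12 kb of end-1. The closest of the series list, V:13999114-13999209 (96 bp), was 12.1 kb away inside ric-7, with a q-value of 3.76e-05 and a counterpart in replicate 1 (q-value 0.00723). That counterpart was 26 bp wide, and its q-value was above the largest of the series list, 0.000997. In replicate 2 the closest was 12.8 kb away, also inside ric-7. Of all protein-coding genes, 26.3% were at least as far from a region of the series list as end-1, and 61.5% at least as far as end-3. The stretch was not empty of regions, since 7 regions of the series list lay within 25 kb of end-1 and 6 within 25 kb of end-3, where the median gene had 4.

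The intestinal genes elt-2 and elt-4 stood farthest from any region. They are neighbours on X, with elt-4, a short relative of elt-2 with no known role, separated from it by C39B10.7. In the series list the closest region to both was X:10501314-10501601 (288 bp), inside vab-3, the worm Pax6 gene. It had a q-value of 4.14e-09, was listed in replicate 1 (q-value 7.00e-08) and was not listed in replicate 2. It lay 18.02 kb from elt-2 and 25.5 kb from elt-4. Only 17.8% of protein-coding genes were at least as far from a region as elt-2, and 11.3% as far as elt-4.

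Both genes sat in a single stretch of 62.3 kb without the midpoint of a region in the series list, and of 62.3 kb in replicate 1. In replicate 2, where regions are sparser throughout, that stretch was 84.7 kb. A region-free stretch at least as long as that of the series list held 22.1% of all protein-coding genes, and among genes with no midpoint inside them the median stretch was 32.6 kb. Within 25 kb, elt-2 had 4 regions in the series list and 0 in replicate 2, and elt-4 had 0 in all 3 lists. The median gene had 4 in the series list, 3 in replicate 1 and 1 in replicate 2.

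The strongest region near any member belonged to the surroundings of elt-7, which encodes a factor that acts together with ELT-2 in intestinal differentiation. V:4777572-4778010 (439 bp) lay 4.70 kb from elt-7 on the higher-coordinate side, with a q-value of 7.83e-63, rank 141 of 7964. In replicate 1 it spanned V:4777572-4777994 with a q-value of 2.97e-52, rank 99 of 7782, and in replicate 2 V:4777598-4777974 with a q-value of 2.99e-18, rank 218 of 3138. It was thus among the strongest 1.77% of the series list, 1.27% of replicate 1 and 6.95% of replicate 2. The region filled the end of the gap between elt-7 and C18G1.1, and in the series list its midpoint was 0.169 kb from C18G1.1. In all 3 lists it overlapped the end of C18G1.1, by less than the offset taken for the builds. By position it is therefore closer to C18G1.1 than to elt-7, and it meets the planned window of elt-7 only if the 5′ end of elt-7 is at the higher coordinate. It was the only region within 25 kb of elt-7 in each of the 3 lists. The median gene had 4 regions within 25 kb in the series list, 3 in replicate 1 and 1 in replicate 2. On the lower-coordinate side the closest region of the series list was 39.1 kb away.

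**Figure D2:**
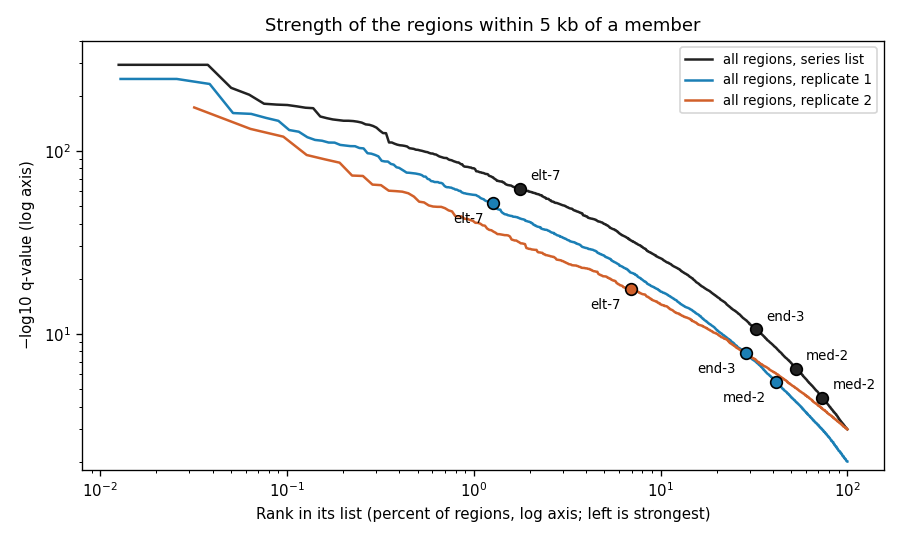
Strength of the regions within 5 kb of a member (circles) on the curves of all regions of each list. The x axis is the rank as a percentage of the list and the y axis the −log10 q-value, both on log axes; the 3 regions with a q-value of 0 are drawn at the smallest value above 0. The elt-7 region lies in the strong tail of all 3 lists, at 1.77%, 1.27% and 6.95%, while those of end-3 and med-2 lie at 28.6% or weaker and are missing from replicate 2.

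By the summed width of the regions with their midpoint within 5 kb, elt-7 came first with 439 bp (series list), 423 bp (replicate 1) and 377 bp (replicate 2). In the same order, end-3 had 369, 314 and 0 bp and med-2 had 290, 258 and 0 bp, and the other 4 members had 0 in every list. The region at med-1, with its midpoint just outside, reaches into the 5 kb with its near edge and is not counted in this sum. The protein-coding genes most like elt-7 over the 3 lists, by Euclidean distance of log2(summed width in bp + 1), were fitm-2, nol-16 and sre-23 on chromosome I. These 3 genes had the same values, 442, 419 and 373 bp, at a distance of 0.023. Whether their windows hold the same region was not checked, and q-values were not part of this measure.

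The order of the members by distance to the nearest region of the series list was end-3 (2.40 kb), med-2 (2.69 kb), elt-7 (4.70 kb), med-1 (5.08 kb), end-1 (12.1 kb), elt-2 (18.02 kb) and elt-4 (25.5 kb). Their median of 5.08 kb compares with 4.52 kb over all protein-coding genes. In replicate 1 the medians were 12.1 kb for the members and 4.66 kb for all genes, and in replicate 2 they were 12.8 kb for the members and 14.0 kb for all genes. The members thus did not stand on one side of the general distribution, and the order of end-3 and med-2, or of elt-7 and med-1, rests on differences close to the width of a region (median 312 bp in the series list).

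**Figure D3:**
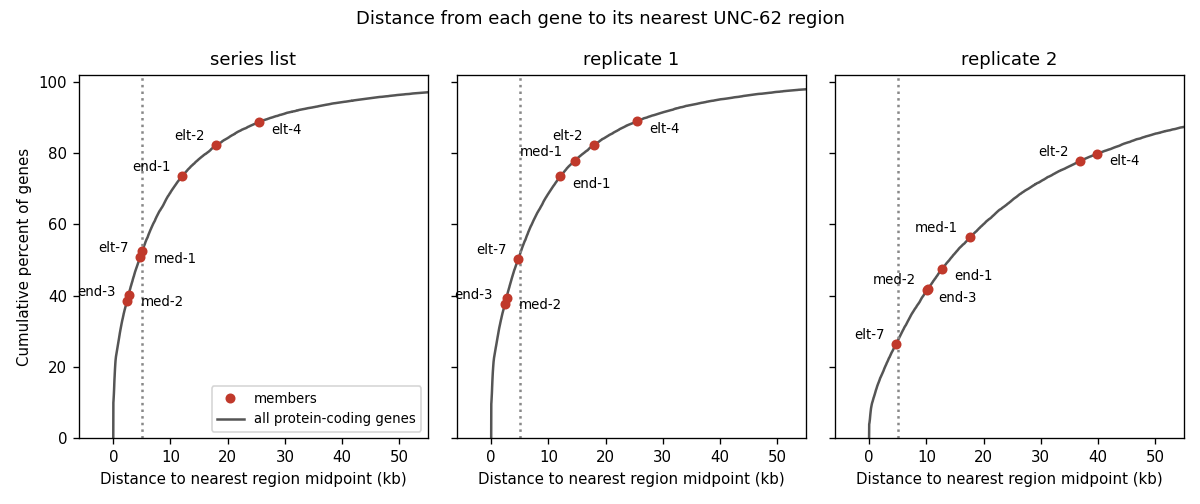
Cumulative distribution over all protein-coding genes (grey line) of the distance in kb to the nearest region midpoint, with the 7 members as red points, for each list; the dotted line marks 5 kb. In the series list the members run from end-3 at 2.40 kb to elt-4 at 25.5 kb, and in replicate 2 only elt-7 stays left of the line.

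Members are short, 0.433 to 2.42 kb with a median of 1.29 kb, against a median of 2.01 kb over all protein-coding genes, and longer genes have longer windows. Among the 11844 genes no longer than the longest member, 44.7% had a region of the series list within 5 kb and 20.4% within 1 kb, against 63.1% and 39.4% among the 8127 longer ones. Chromosomes differed as well. The share within 5 kb was 35.5% on V, which holds end-1, end-3 and elt-7, 59.0% on X, which holds med-1, elt-2 and elt-4, and 64.6% on III, which holds med-2.

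Genes that act before and beside the members were read in the same way. Of 10 genes of the maternal and Wnt inputs to E and its sister MS, all 10 had a region of the series list within 5 kb on either side (52.2% of all genes), and 7 of 10 had one in both replicates (26.9% of all genes). With the gene and 1 kb on either side the count was 6 of 10 (28.1% of all genes). Each reading of the strand gave 8 of 10 (41.9% and 41.7% of all genes), though not the same 8, since wrm-1 and apr-1 met the window only in the lower-coordinate reading and mom-2 and mom-4 only in the other. These genes are mostly longer than the members, at 2.198 to 22.4 kb. Among all genes longer than the longest member, 63.1% had a region within 5 kb and 39.4% within 1 kb. Most of these inputs lie on chromosome I or III. There 63.0% and 64.6% of all genes had a region of the series list within 5 kb.

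The smallest q-values within 5 kb were at mom-5, a Frizzled receptor (4 regions, smallest q-value 4.48e-49), sys-1, the β-catenin partner of POP-1 (4 regions, 1.71e-43), skn-1 (3 regions, 1.13e-28) and lit-1, a Nemo-like kinase (9 regions, 8.23e-27). The strongest regions of skn-1, IV:5655878-5656398, and of lit-1 lay inside the gene. Those of mom-5 and sys-1 lay 2.87 and 4.09 kb away and were nearer to other genes, algn-10 and the histone gene his-67. The strongest regions of apr-1, mom-2 and mom-4 were also nearer to other genes, K04G2.7, mpdu-1 and ztf-11. At mom-2 that was the only region of the series list within 5 kb. The smallest q-value within 5 kb of skn-1 was 1.15e-17 for replicate 1 and 2.84e-12 for replicate 2. For pop-1 the series list had 5 regions with a smallest q-value of 1.86e-18, in a region 4.001 kb away to which pop-1 was the nearest gene.

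GATA factors of other tissues, elt-1, elt-3, egl-18 and elt-6, which act in the epidermis and seam, all had a region of the series list in the gene or within 1 kb of it, 4 of 4, where 28.1% of all genes did and 39.4% of the genes longer than the longest member. Within 5 kb, elt-1 had 7 regions, the strongest of them IV:9617244-9618481 with a q-value of 3.72e-33, and elt-3 had 3, with a smallest value of 3.46e-28. Both genes had regions within 5 kb in each replicate. The counts of egl-18 and elt-6 rest on a single shared region of 5 bp with a q-value of 0.000672, and replicate 2 listed none there. These genes are longer than the members, at 3.67 to 6.33 kb.

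Of the 4 regulators of the MS lineage, tbx-35, ceh-51, pha-4 and hnd-1, none had a region of the series list within 5 kb on either side (52.2% of all genes). At pha-4, the organ identity gene of the pharynx, replicate 1 alone listed 1 region, with a q-value of 0.00834. A region with that value could be listed only in replicate 1, since the series list ended at 0.000997 and replicate 2 at 0.000998. The closest regions of the series list were 5.99 kb from pha-4, 7.39 kb from hnd-1, 11.95 kb from tbx-35 and 19.1 kb from ceh-51. Differences between these lists and the 7 members were not tested, and gene length and chromosome differ between them.

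**Figure D4:**
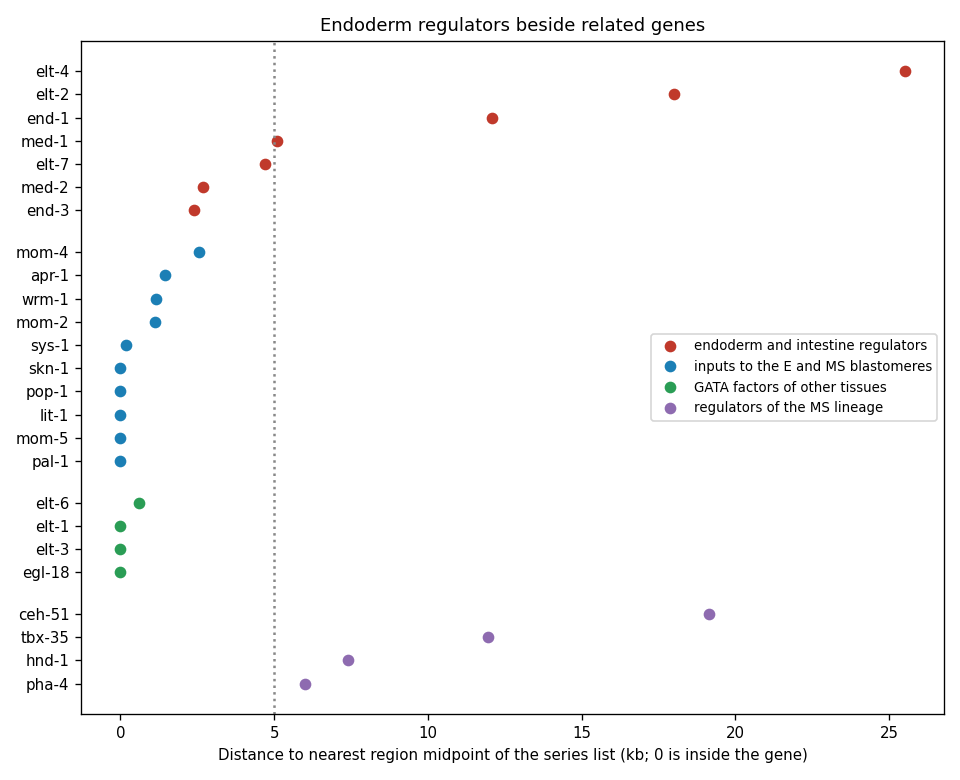
Distance in kb from each gene to the nearest region midpoint of the series list (0 is inside the gene), for the 7 endoderm and intestine regulators (red), 10 inputs to the E and MS blastomeres (blue), 4 GATA factors of other tissues (green) and 4 regulators of the MS lineage (purple). All blue and green points lie left of the dotted 5 kb line, as do 3 of the 7 red points and none of the purple points.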

How the data were processed

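The authors deposited 3 lists of regions, 1 for the whole series and 1 for each ChIP replicate, on WormBase WS220 per the file headers and called with PeakSeq per their source column. Each region has 1 deposited value, read as a q-value; this reading is an assumption, since a p-value would behave alike. Aligner, versions, filters and the making of the series list are not stated in the labels or headers, and no depth is known. Region midpoints were assigned to gene windows with Python 3.11.15, pandas 2.3.3 and numpy 2.4.6, and the steps were tested on simulated data. Genes came from RefSeq's WBcel235 table, which holds no strand, so the planned window was replaced by 5 kb on either side, with both readings of the strand given. The 5′ ends, promoters, motifs and protein sequences planned were not analysed here. Regions of different lists were matched by an overlap of at least 1 bp. Every member is named. Per list of related genes at most 4 are named by rule, the smallest q-values, and pop-1 and pha-4 were added after their values were seen. The smallest q-value of wrm-1, 2.41e-20, was below that of pop-1. Also named outside the rule are wrm-1, apr-1, mom-2 and mom-4, for the strand reading or nearest gene. So are tbx-35, ceh-51 and hnd-1, which had no region within 5 kb in any list. Members, lists and rules were chosen with earlier results of these data known.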

Additional observations from a re-analysis of the deposited data

How the results depend on the processing

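Of 44 values under alternatives, 26 kept their size (counts within 1.5 times, the share of all genes within its exact 95% interval of 51.5 to 52.9%) and 18 moved. The readings of the strand and the assignment to the nearest gene were chosen after seeing the data. Within 2 kb, the series list had 0 members (3 within 5 kb) and 0 regions near them, with a share of all genes of 36.1%. In both replicates the count within 2 kb was 0 (1 within 5 kb), and the share of all genes was not computed. Within 10 kb the share of the series list was 69.0%. In the stronger 50% of each list, 2 regions were left near members and the share was 32.9%. With the 5′ end at the lower coordinate, 1 member and 1 region were counted in the series list (41.9% of all genes). In both replicates 0 members were counted with that reading (20.0% of all genes). At the higher coordinate the share of the series list was 41.7%. Assigned to the nearest protein-coding gene only, 0 regions and 0 members were left, since each of the 4 regions is nearer to another gene. The share of all genes under that assignment was not computed, and the assignment lowers counts by construction. Leaving out either replicate gave 1 to 3 members, 1 to 3 regions and a share of 27.5 to 51.5%, the lower values from the replicate 2 list. med-1 was added to the 3 members with 10 kb, with any overlap, and with regions moved 100 bp to the right. Fewer regions or a shorter window lower these counts by construction. The assignment by nearest 5′ end was not run for want of strand.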
